A study of Mus musculus and Homo sapiens with 22 samples.

Results

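The genes described are 5 orthologous pairs of cell-cycle brakes and p53 pathway genes: CDKN1A, CDKN1B, GADD45A, SESN1 and MDM2 in human MDA-MB-231 cells, and Cdkn1a, Cdkn1b, Gadd45a, Sesn1 and Mdm2 in mouse cells labelled 4T1. They were chosen by symbol in the mouse tables and by Ensembl gene ID in the human tables, 10 genes of 81637 gene IDs listed for both lines, and all 10 passed the filter on low counts. RNA was sequenced and counted per gene. MDA-MB-231 is a human triple-negative breast cancer line, and 4T1 is a mouse mammary carcinoma line commonly described as lacking functional p53. Cells were plated for 24 h and treated for 24 h with ENMD-2076 or TAK901, which are both known as Aurora kinase inhibitors, or with the solvent DMSO. MDA-MB-231 cells received DMSO, 2.5 µM or 5 µM ENMD-2076, or 1 µM or 2 µM TAK901. Cells labelled 4T1 received DMSO, the same doses of TAK901, or ENMD-2076 at a lower dose of 1.25 µM and a higher one of 2.5 µM. These ENMD-2076 doses are those of the labels, whereas the growth protocol gives 1 or 2 µM and the column names of these 4 tables contain 10 µM, so the concentrations are uncertain. Each treated group and MDA-MB-231 DMSO held 2 libraries and 4T1 DMSO held 4, numbered 1 to 4, for 22 libraries in all. Whether replicates came from separate cultures is not in the labels, so p-values reflect only how far these libraries differ, which may be a technical spread.

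CDKN1A encodes p21 and CDKN1B encodes p27, inhibitors that bind cyclin-CDK complexes and hold cells before DNA synthesis. p21 is a classical transcriptional target of p53, whereas p27 is regulated largely by FOXO factors and by SKP2-dependent degradation of the protein. GADD45A encodes a stress sensor induced by DNA damage, SESN1 encodes sestrin 1, which restrains mTORC1 under stress, and MDM2 encodes the ubiquitin ligase that degrades p53 and is itself induced by it. Aurora kinase inhibitors are known to make cells fail mitosis or cytokinesis, after which p53-competent cells typically stop in a p21-dependent arrest.

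Because p53 is the factor best known to bind 4 of the 5 genes, the RefSeq promoter windows of the mouse genes (build GRCm38.p6, 250 bases before to 50 bases after a start site) were searched for the p53 consensus unit of 10 bases on both strands. Such a match stood in 8.36% of all 32851 mouse promoter windows of this length. It was present in the windows of Cdkn1a (the upstream of 2 start sites, 2 matches), Mdm2 (1 match), Gadd45a (1 match) and Sesn1 (the downstream of 2 start sites, 1 match), and was not found in that of Cdkn1b. The 250 bases before each of these 4 start sites are shown because the genes they belong to moved in opposite directions below. Each is read 5′ to 3′ on the gene's strand, at chr17:29090729-29090978 (plus), chr6:67037408-67037657 (minus), chr10:41887189-41887438 (plus) and chr10:117710759-117711008 (minus), with the matching units in capitals.
Cdkn1a: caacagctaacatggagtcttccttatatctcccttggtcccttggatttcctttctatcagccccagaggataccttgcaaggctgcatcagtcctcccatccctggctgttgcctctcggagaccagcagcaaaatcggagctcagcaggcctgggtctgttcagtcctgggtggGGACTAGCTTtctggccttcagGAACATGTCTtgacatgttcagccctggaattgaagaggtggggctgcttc
Gadd45a: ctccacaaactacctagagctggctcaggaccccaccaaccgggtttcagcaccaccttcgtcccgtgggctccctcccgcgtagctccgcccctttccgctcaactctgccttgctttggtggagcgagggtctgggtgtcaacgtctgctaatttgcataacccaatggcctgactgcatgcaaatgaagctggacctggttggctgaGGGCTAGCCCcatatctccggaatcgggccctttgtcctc
Sesn1: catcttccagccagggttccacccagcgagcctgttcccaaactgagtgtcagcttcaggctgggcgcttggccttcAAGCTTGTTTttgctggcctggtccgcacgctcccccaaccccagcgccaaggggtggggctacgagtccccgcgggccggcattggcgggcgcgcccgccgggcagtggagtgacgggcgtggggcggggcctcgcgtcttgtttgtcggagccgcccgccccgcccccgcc
Mdm2: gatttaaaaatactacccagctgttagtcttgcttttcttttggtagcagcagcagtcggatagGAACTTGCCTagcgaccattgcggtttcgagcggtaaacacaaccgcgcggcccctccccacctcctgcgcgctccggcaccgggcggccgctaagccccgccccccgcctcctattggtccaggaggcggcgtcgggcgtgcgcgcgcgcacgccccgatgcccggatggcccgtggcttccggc
A match describes these letters only, as 1 half-site, and does not show that p53 binds there. Bases outside the windows were not searched, and whether a match is a p53 site known from other work was not checked. In the annotation (GRCm38), Cdkn1a lies on chromosome 17 from 29090976 to 29100727, Cdkn1b on chromosome 6 from 134920401 to 134925513, and Gadd45a on the minus strand of chromosome 6 from 67035096 to 67037457. Sesn1 lies on chromosome 10 from 41809935 to 41908424 and Mdm2 on the minus strand of chromosome 10 from 117688875 to 117710758.

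Before any result, 3 features of the libraries bear on the mouse values. The libraries labelled 4T1 came in 2 naming sets, set 1 (every ENMD-2076 library, DMSO 1 and DMSO 2) and set 2 (every TAK901 library, DMSO 3 and DMSO 4). Each compound was therefore set against the DMSO libraries of its own set. The sets differed in all their libraries, DMSO included. Set 1 had 0 reads of Y-linked genes and set 2 had 1004 to 7021 per library. In all, 6 gut and liver epithelium markers summed to 0.481 to 14.9 CPM in set 1 and 525 to 568 CPM in set 2. Within set 1 their sum was 1.59 to 2.92 CPM in DMSO, 0.481 to 0.612 CPM at 1.25 µM ENMD-2076 and 12.3 to 14.9 CPM at 2.5 µM. Cdh17 averaged 2.26, 0.547 and 13.4 CPM in these groups. In set 1, 8 epithelial markers (Krt8, Krt18, Epcam, Cdh1 and others) summed to 4236 to 4330 CPM in DMSO, 4110 to 4258 CPM at 1.25 µM ENMD-2076 and 3136 to 3232 CPM at 2.5 µM. These sums join opposite changes. In edgeR's test at an adjusted p under 0.05, 4 of 7 tested were higher (largest Cdh1) and 2 lower (largest Krt18) at 1.25 µM. At 2.5 µM 2 were higher (largest Gata3) and 3 lower (largest Esr1). The 8 mesenchymal and fibroblast markers (Vim, Col1a1 and others) in set 1 summed to 2223 to 2275 CPM in DMSO, 451 to 486 CPM at 1.25 µM and 1545 to 1548 CPM at 2.5 µM. By the same test 2 of 5 tested were higher (largest Col1a2) and 2 lower (largest Vim) at 1.25 µM. Vim alone was called at 2.5 µM, lower. Col1a1 averaged only 0.432 CPM in DMSO and 0.335 CPM at 1.25 µM. Of all genes tested, 22.6% were higher and 23.2% lower at 1.25 µM, and 33.2% and 37.1% at 2.5 µM. In set 1, 6 haematopoietic markers summed to 11.4 to 13.3 CPM in DMSO, 23.7 to 27.7 CPM at 1.25 µM and 7.26 to 7.70 CPM at 2.5 µM. In set 2 the epithelial sum was 3792 to 4983 CPM, the mesenchymal sum 2145 to 2721 CPM and the haematopoietic sum 5.31 to 8.89 CPM. Endothelial markers reached at most 5.04 CPM in any mouse library. In set 1 they summed to 0.530 to 0.649 CPM in DMSO, 0 to 0.413 CPM at 1.25 µM and 3.47 to 5.04 CPM at 2.5 µM. At 2.5 µM edgeR called 3 of 3 tested higher than DMSO, at low counts (Kdr at most 4 reads). The mitochondrial share of gene reads was 3.92% and 4.13% in DMSO 1 and 2, 6.21% and 7.09% at 1.25 µM ENMD-2076 and 8.83% and 8.72% at 2.5 µM, and 1.94% to 2.98% in set 2. The part of these differences in the results was not tested. Within set 1, both libraries at 2.5 µM ENMD-2076 stood apart by a high level of the ribosomal RNA-related gene Gm26917 (2185 and 2004 CPM of the total count against 29.9 to 50.6 CPM in the other set 1 libraries) and by TMM scaling factors of 0.766 and 0.784. Within set 2, the 2 libraries at 2 µM TAK901 held only 6004077 and 3746588 gene reads. The other mouse libraries held 14418492 to 30866819, and those of MDA-MB-231 13399296 to 23990881. In bulk samples, fewer cells of a type and less RNA per cell cannot be told apart, and no cell type markers were analysed here for MDA-MB-231.

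In MDA-MB-231 the 2 CDK inhibitor genes moved apart: CDKN1A fell and CDKN1B rose with TAK901 at both doses, and GADD45A fell beside CDKN1A. MDM2 and SESN1 passed the test at no dose of either compound. Levels are given as CPM, counts scaled to a common total of gene reads with TMM. With edgeR's quasi-likelihood test and Benjamini-Hochberg adjustment over 14826 genes, called at an adjusted p under 0.05, 3 of the 5 genes were called at 1 µM TAK901 (1 higher, 2 lower), where 13.9% of all genes tested were called (6.46% higher, 7.47% lower). At 2 µM 3 were called (1 higher, 2 lower), where 31.2% of all genes were called (15.2% higher, 16.0% lower). None of the 5 was called at 2.5 µM ENMD-2076, where 0.607% of all genes were called, 0 of the 5 had an unadjusted p under 0.05 and DESeq2 called 0. None was called at 5 µM either, where 4.89% of all genes were called, 2 of the 5 had an unadjusted p under 0.05 and DESeq2 called 1. The groups of the line share 1 estimate of the spread, so these ENMD-2076 calls also depend on the TAK901 libraries. Without both libraries at 2 µM TAK901, 953 genes were called at 2.5 µM ENMD-2076 and 2460 at 5 µM, against 90 and 725. Of the 5 genes only CDKN1A was then called, at 5 µM.

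CDKN1A, the p21 gene, read 124 and 98.9 CPM in the 2 DMSO libraries, 96.5 and 96.2 CPM at 2.5 µM ENMD-2076 and 82.9 and 80.8 CPM at 5 µM. It read 67.4 and 65.3 CPM at 1 µM TAK901 and 77.9 and 67.8 CPM at 2 µM. Every treated library lay below both DMSO libraries, and those with TAK901 lay below those with ENMD-2076. On the log2 scale CDKN1A fell by 0.75 (SE 0.13, adjusted p = 0.00209) at 1 µM TAK901 and by 0.62 (SE 0.13, adjusted p = 0.00256) at 2 µM in edgeR's test, and both calls held in all 17 and 16 alternative settings tried. The difference at 5 µM ENMD-2076 was -0.45 (95% interval -0.72 to -0.17, adjusted p = 0.0605), and 7 of 17 alternatives, among them DESeq2 and the fits without either or both libraries at 2 µM TAK901, called it. At 2.5 µM it was -0.21 (95% interval -0.48 to 0.06).

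CDKN1B, the p27 gene, read 41.8 and 42.8 CPM in DMSO, 43.4 and 46.4 CPM at 2.5 µM ENMD-2076, and 52.5 and 51.2 CPM at 5 µM. With TAK901 it read 56.0 and 57.1 CPM at 1 µM and 69.3 and 68.5 CPM at 2 µM. The 5 groups did not overlap with one another, in the order DMSO, ENMD-2076 2.5 and 5 µM, TAK901 1 and 2 µM, but the 2 doses of a compound did not differ by the test. Libraries of ENMD-2076 and DMSO did not overlap for 48.6% and 55.8% of all genes at 2.5 and 5 µM, and those of TAK901 and DMSO for 58.8% and 59.9% at 1 and 2 µM, against 3 or 4 of these 5 genes. Between the doses the shares were 46.5% and 43.5%, against 2 of the 5 genes for each compound. CDKN1B rose by 0.42 (SE 0.12, adjusted p = 0.0300) at 1 µM TAK901 and by 0.70 (SE 0.12, adjusted p = 4.9e-04) at 2 µM in edgeR's test. The call at 2 µM held in 16 of 16 alternatives, whereas that at 1 µM held in 8 of 17 and was lost when any 1 library of the DMSO, ENMD-2076 or 1 µM TAK901 groups was left out or no filter was used. With ENMD-2076 the differences were 0.09 (95% interval -0.16 to 0.34) and 0.29 (95% interval 0.04 to 0.54, adjusted p = 0.170), neither of them called.

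GADD45A read 78.6 and 69.1 CPM in DMSO, 65.7 and 67.2 CPM at 2.5 µM ENMD-2076 and 71.6 and 65.6 CPM at 5 µM, so that the 5 µM libraries overlapped with DMSO. It read 55.2 and 54.0 CPM at 1 µM TAK901 and 55.3 and 45.1 CPM at 2 µM, below every other library of the line. GADD45A fell by 0.44 (SE 0.13, adjusted p = 0.0398) and by 0.56 (SE 0.13, adjusted p = 0.00541) with TAK901 in edgeR's test. The call at 1 µM was lost without any 1 library of the DMSO, ENMD-2076 or 1 µM TAK901 groups and under total-count scaling, and the call at 2 µM was lost without DMSO replicate 1 and with only the 2 groups in the fit. With ENMD-2076 the differences were -0.15 (95% interval -0.43 to 0.12) and -0.11 (95% interval -0.38 to 0.17).

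MDM2 ranged from 45.4 to 67.6 CPM over the 10 libraries. It read 65.2 and 61.6 CPM in DMSO, 50.7 and 56.2 CPM at 2.5 µM ENMD-2076, and 59.5 and 54.8 CPM at 5 µM. With TAK901 it read 45.4 and 60.8 CPM at 1 µM and 56.3 and 67.6 CPM at 2 µM. The 2 libraries of each TAK901 dose lay further apart than those of DMSO, and the 4 differences from DMSO ran from -0.26 (95% interval -0.58 to 0.07) at 1 µM TAK901 to -0.03 (95% interval -0.36 to 0.29) at 2 µM. SESN1 was covered by only 65 to 152 reads per library, 4.91 to 8.46 CPM. Its groups overlapped, and its 95% intervals ran from -0.50 to 0.77 and from -0.74 to 0.54 at 2.5 and 5 µM ENMD-2076 and from -0.72 to 0.58 and from -0.66 to 0.63 at 1 and 2 µM TAK901. Between the doses of ENMD-2076 0 of the 5 genes were called (0.0135% of all genes called, 0 with an unadjusted p under 0.05, DESeq2 0), and between the doses of TAK901 also 0 (3.74% of all genes called, 1 with an unadjusted p under 0.05, DESeq2 0).

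**Figure D1:**
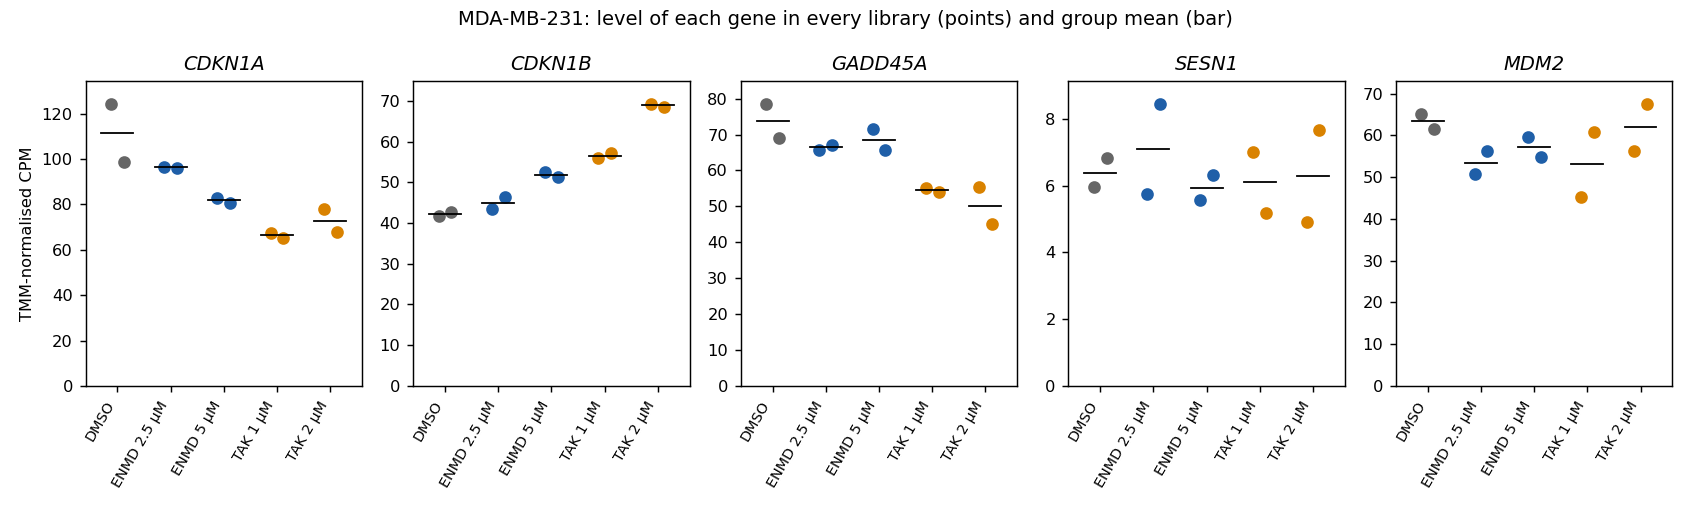
Level of the 5 genes in every MDA-MB-231 library, in TMM-normalised CPM on axes that start at 0, with 1 point per library and a bar at the group mean (grey DMSO, blue ENMD-2076, orange TAK901). CDKN1A is lowest and CDKN1B highest in the TAK901 groups, and the points of SESN1 and MDM2 vary widely within groups.

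In the 4T1 libraries of set 1, ENMD-2076 was accompanied by a deep loss of Cdkn1a RNA at both doses, a rise of Sesn1, and a change of Gadd45a that went up at 1.25 µM and down at 2.5 µM. Cdkn1b passed the test at neither dose. Of the 5 genes 4 were called at 1.25 µM (2 higher, 2 lower), 4 at 2.5 µM (1 higher, 3 lower) and 4 between the doses (2 higher, 2 lower at 2.5 µM), while 45.9%, 70.3% and 73.3% of all 15375 genes tested were called, so a call alone does not set these genes apart. Of all genes, 22.6%, 33.2% and 35.4% were higher and 23.2%, 37.1% and 37.8% lower in these 3 comparisons. Libraries of the 2 groups did not overlap for 65.2% (1.25 µM), 79.5% (2.5 µM) and 80.7% (between doses) of all genes, against 5 of the 5 genes each time.

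Cdkn1a read 22.5 and 18.8 CPM in DMSO 1 and 2, 2.68 and 3.32 CPM at 1.25 µM and 4.04 and 5.31 CPM at 2.5 µM. All 4 treated libraries lay far below DMSO, and those at 2.5 µM lay above those at 1.25 µM. The level fitted by edgeR was 6.67 times lower than in DMSO at 1.25 µM, a fall by 2.74 on the log2 scale (SE 0.14, adjusted p = 9.12e-17 in edgeR's test), and 4.51 times lower at 2.5 µM, a fall by 2.17 (SE 0.15, adjusted p = 2.34e-14). The difference between doses was 0.56 (SE 0.19, adjusted p = 0.0103), a call lost without replicate 2 at 2.5 µM, without replicate 1 at 1.25 µM, under total-count scaling and with only the 2 groups compared. Over the alternatives it ranged from 0.18 to 0.83. An annotated gene on the opposite strand that overlaps 273 bases of the Cdkn1a exons was not analysed here.

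Gadd45a read 46.2 and 49.7 CPM in DMSO 1 and 2, 111 and 116 CPM at 1.25 µM and 2.97 and 5.31 CPM at 2.5 µM. The 3 groups were far apart, with the 1.25 µM libraries above DMSO and the 2.5 µM libraries, at as few as 47 reads, below it. Gadd45a rose by 1.25 (SE 0.10, adjusted p = 3.7e-12 in edgeR's test) at 1.25 µM and fell by 3.59 (SE 0.15, adjusted p = 2.16e-19) at 2.5 µM. Between the doses the level fitted by edgeR was 28.6 times lower at 2.5 µM, a fall by 4.84 (SE 0.14, adjusted p = 2.33e-23). The counting strand is not given in the sources used here. E230016M11Rik, an antisense gene that overlaps 337 bases of the Gadd45a exons, had 6 to 37 reads in any mouse library. It had 25 and 9 reads in DMSO 1 and 2, 21 and 22 at 1.25 µM and 7 and 6 at 2.5 µM. These counts do not show how reads in the shared bases were assigned, which was not tested.

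Sesn1 read 22.0 and 19.04 CPM in DMSO 1 and 2, 32.2 and 34.9 CPM at 1.25 µM and 50.5 and 46.7 CPM at 2.5 µM. The groups did not overlap and followed the dose. Sesn1 rose by 0.71 (SE 0.12, adjusted p = 1.21e-05 in edgeR's test) and by 1.24 (SE 0.12, adjusted p = 1.52e-10), and the difference between doses of 0.53 (SE 0.12, adjusted p = 1.53e-04) was lost under total-count scaling, where it was 0.15.

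Mdm2 read 106 and 106 CPM in DMSO 1 and 2, 90.4 and 98.3 CPM at 1.25 µM and 79.1 and 77.6 CPM at 2.5 µM. It followed the dose downwards, by 0.16 (SE 0.07, adjusted p = 0.0430 in edgeR's test) and by 0.44 (SE 0.07, adjusted p = 1.51e-06). The smaller change was called in only 7 of 20 alternatives and was lost, for example, without either DMSO library of set 1, whereas the larger was called in 19 of 19. The difference between the doses (-0.27) was not called with RLE size factors, with DESeq2 or without replicate 2 at 1.25 µM, and came as close to 0 as -0.12. Cdkn1b, with the flattest values of the 5, read 239 and 244 CPM in DMSO 1 and 2, 246 and 259 CPM at 1.25 µM and 232 and 233 CPM at 2.5 µM, with differences of 0.07 (95% interval -0.06 to 0.20) and -0.05 (95% interval -0.19 to 0.08).

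The 2.5 µM values depended on the scaling. Total-count scaling moved the median log2 fold change of all genes from -0.02 to -0.37 against DMSO, and the share of called genes that were higher from 47.3% to 34.2% (against 1.25 µM, from 48.4% to 36.3%). Cdkn1b was then called lower (-0.41), close to that shift, while Cdkn1a, Gadd45a, Sesn1 and Mdm2 kept their directions and calls against DMSO. Proliferation markers (Mki67, Top2a, Ccnb1, Ccna2, Cdk1, Pcna and Mcm2) summed to 1999 to 2093 CPM in DMSO 1 and 2, 254 to 286 CPM at 1.25 µM and 1974 to 2002 CPM at 2.5 µM, and 7 of 7 fell at 1.25 µM. The sum at 2.5 µM hides opposite changes. There edgeR called 3 of these 7 markers higher (largest Mcm2) and 4 lower (largest Ccnb1), and DESeq2 called 3 higher and 3 lower. The part of proliferation markers in the changes of the 5 genes was not tested.

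**Figure D2:**
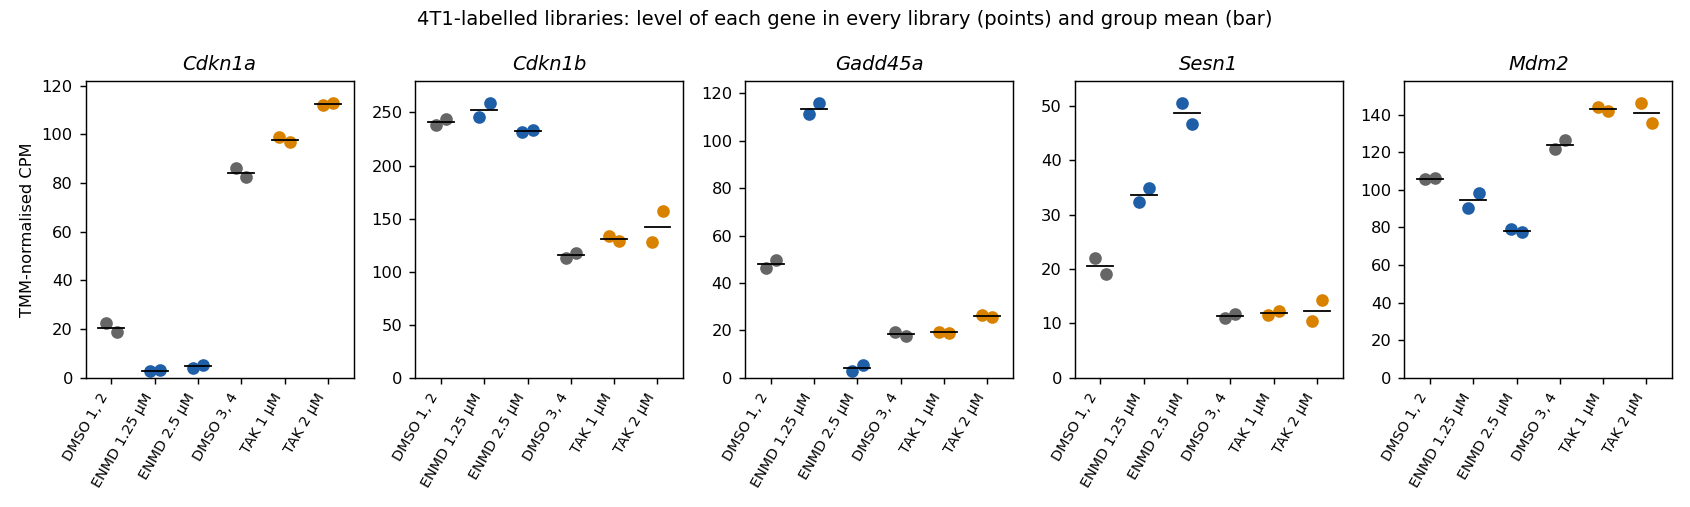
Level of the 5 genes in every library labelled 4T1, in TMM-normalised CPM on axes that start at 0, with 1 point per library and a bar at the group mean (grey DMSO, blue ENMD-2076, orange TAK901). The left 3 groups are set 1 and the right 3 are set 2. Cdkn1a lies between 2.68 and 5.31 CPM with ENMD-2076, and Gadd45a is highest at 1.25 µM.

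In set 2, TAK901 was accompanied by small rises. Of the 5 genes 1 was called higher at 1 µM and 3 at 2 µM, none was called lower (0 lower at an unadjusted p under 0.05 and 0 by DESeq2), and 9.14% and 14.9% of all genes tested were called (3.97% and 5.63% higher, 5.17% and 9.28% lower). Libraries of the 2 groups did not overlap for 3 of the 5 genes at 1 µM and 4 at 2 µM, against 59.5% and 57.8% of all genes. Between the doses this held for 2 of the 5 and for 42.2% of all genes. Already in DMSO the sets held these genes at different levels, with Cdkn1a at 86.2 and 82.4 CPM in DMSO 3 and 4 against 22.5 and 18.8 CPM in DMSO 1 and 2. Cdkn1b, Gadd45a and Sesn1 were lower in DMSO 3 and 4 than in DMSO 1 and 2, and the compound cannot be told apart from the set when TAK901 and ENMD-2076 values are set side by side.

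Cdkn1a read 98.7 and 96.8 CPM at 1 µM TAK901 and 112 and 113 CPM at 2 µM, above both DMSO libraries. It rose by 0.42 (SE 0.09, adjusted p = 0.00145 in edgeR's test) at 2 µM, a call that held in 18 of 18 alternatives, and the difference at 1 µM was 0.21 (95% interval 0.04 to 0.38, adjusted p = 0.114). Gadd45a read 19.3 and 17.5 CPM in DMSO 3 and 4, 19.4 and 18.9 CPM at 1 µM, which overlaps with DMSO, and 26.4 and 25.8 CPM at 2 µM. It rose by 0.51 (SE 0.14, adjusted p = 0.00966) at 2 µM, a call lost without DMSO 4 or without either library at 2 µM, and the difference at 1 µM was 0.06 (95% interval -0.17 to 0.29).

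Cdkn1b read 113 and 118 CPM in DMSO 3 and 4, 133 and 129 CPM at 1 µM and 128 and 157 CPM at 2 µM. All 4 treated libraries lay above DMSO, and the 2 doses overlapped. It rose by 0.29 (SE 0.07, adjusted p = 0.00652 in edgeR's test) at 2 µM, a call lost without DMSO 3 or without replicate 2 at 2 µM, where the estimate was 0.15. At 1 µM the difference was 0.18 (95% interval 0.05 to 0.32, adjusted p = 0.0823).

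Mdm2 read 122 and 126 CPM in DMSO 3 and 4, 144 and 142 CPM at 1 µM and 146 and 136 CPM at 2 µM, again above DMSO with overlapping doses. It rose by 0.20 (SE 0.06, adjusted p = 0.0387 in edgeR's test) at 1 µM, and the difference of 0.19 (95% interval 0.05 to 0.33, adjusted p = 0.0680) at 2 µM was not called, although 5 of 18 alternatives called it, DESeq2 and both other scalings among them. The 1 µM call was lost without any 1 library of DMSO 3 and 4 or of 1 µM TAK901, or without DMSO 1. With the 6 libraries of set 2 alone, Cdkn1a and Cdkn1b were also called at 1 µM (3 of 5 genes). Sesn1 read 11.1 and 11.7 CPM in DMSO 3 and 4, 11.6 and 12.2 CPM at 1 µM and 10.4 and 14.3 CPM at 2 µM, with overlapping groups and differences of 0.07 (95% interval -0.21 to 0.34) and 0.08 (95% interval -0.28 to 0.43). Between the doses 0 of the 5 genes were called (0.0715% of all genes called, 2 with an unadjusted p under 0.05, DESeq2 0).

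**Figure D3:**
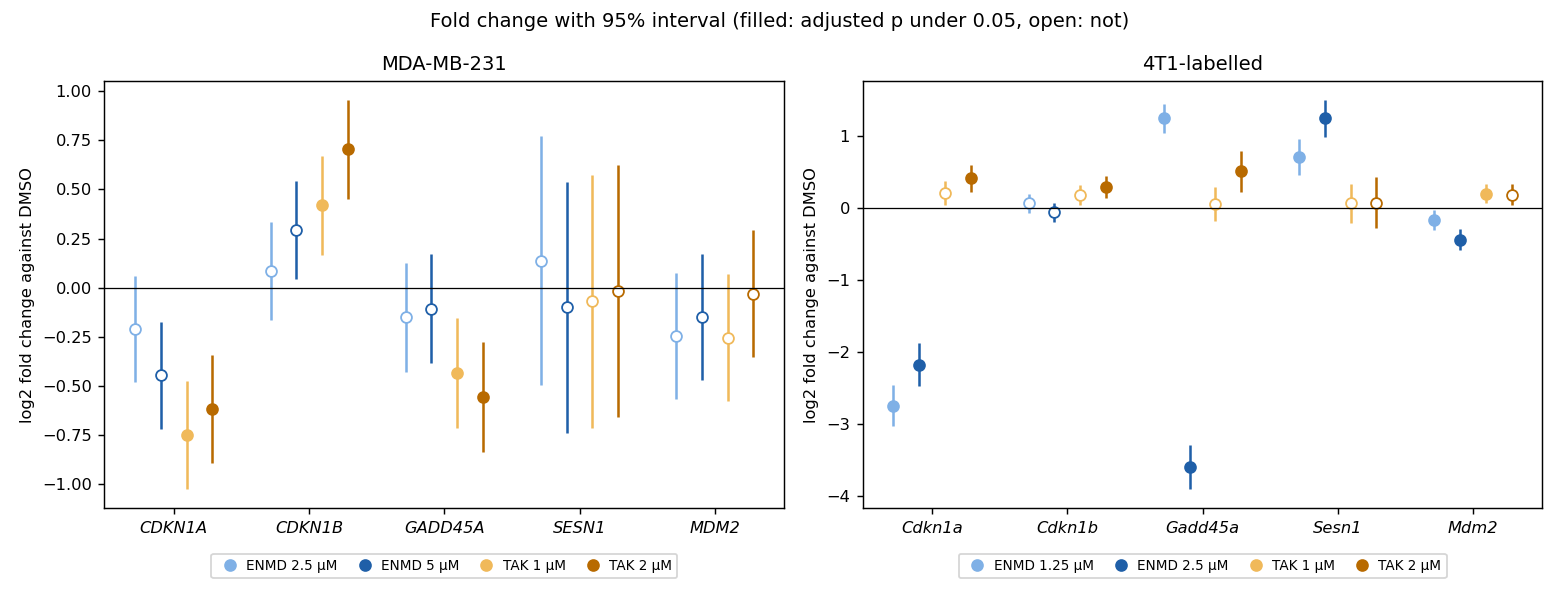
Log2 fold change of the 5 genes against DMSO of the same line or set, with 95% intervals, in MDA-MB-231 (left) and in libraries labelled 4T1 (right), with different vertical scales. Filled points were called and open points were not; CDKN1A is negative at every dose in the left panel, and in the right panel Cdkn1a is at -2.74 and -2.17 with ENMD-2076 but 0.21 and 0.42 with TAK901.

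Set beside one another, p21 RNA fell with ENMD-2076 in 4T1 and with TAK901 in MDA-MB-231, and rose at 2 µM TAK901 in set 2. p27 RNA rose with TAK901 at both doses in MDA-MB-231 and at 2 µM in set 2. The difference between the cell lines was not tested.

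The other CDK inhibitor genes were read in the mouse libraries only, because no table pairing human IDs with names was used here. Cdkn2c (p18), an inhibitor of CDK4 and CDK6, rose from 126 and 140 CPM in DMSO 1 and 2 to 217 and 216 CPM at 1.25 µM ENMD-2076 and 195 and 187 CPM at 2.5 µM, by 0.70 and 0.52 on the log2 scale (edgeR adjusted p = 1.1e-10 and 2.7e-08). Cdkn2d (p19), of the same INK4 class, fell from 31.9 and 29.4 CPM to 3.37 and 6.93 CPM at 1.25 µM, by 2.46, and rose to 52.98 and 50.2 CPM at 2.5 µM, by 0.75. Cdkn2a, which encodes p16 and ARF, and its neighbour Cdkn2b, which encodes p15, had 0 reads in all 6 set 1 libraries, which allows up to 0.0972 to 0.208 CPM per library for counting error only. In set 2 they read 74.1 to 87.7 CPM and 30.5 to 35.03 CPM, with no call for either. Cdkn1c (p57) never exceeded 18 reads and had 0 in DMSO 1 and 2; its call at 1.25 µM rests on 9 and 3 reads, at least 2.11-fold higher than a floor of 3 reads per library, and was lost without replicate 1 at 1.25 µM or without either DMSO library. In all, 2 of the 7 family members were called higher and 2 lower at 1.25 µM, 2 higher and 1 lower at 2.5 µM, 0 at 1 µM TAK901 in edgeR's test (2 with an unadjusted p under 0.05, DESeq2 0) and 2 higher (Cdkn1a and Cdkn1b) at 2 µM.

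The GADD45 and sestrin families did not move as units. Gadd45b, a stress-induced relative of Gadd45a, went the same way as Gadd45a, from 22.6 and 21.3 CPM in DMSO 1 and 2 up to 99.9 and 84.6 CPM at 1.25 µM ENMD-2076 (2.07, adjusted p = 8.8e-16 in edgeR's test) and down to 16.2 and 15.3 CPM at 2.5 µM (-0.48, not called by DESeq2). Gadd45g instead rose at both doses, from 3.14 and 2.53 CPM to 5.29 and 4.90 CPM and then 8.02 and 8.05 CPM (0.83 and 1.496). Sesn2, a sestrin known as an ATF4 as well as a p53 target, fell from 24.8 and 30.9 CPM to 7.29 and 12.01 CPM at 1.25 µM (-1.46) and read 24.1 and 30.4 CPM at 2.5 µM, overlapping with DMSO. Sesn3, a FOXO target, rose from 26.0 and 19.4 CPM to 39.9 and 42.1 CPM (0.85) and fell to 15.5 and 16.3 CPM (-0.52). Of the 6 genes 5 rose and 1 fell at 1.25 µM, whereas 2 rose and 3 fell at 2.5 µM, with medians of 0.84 and -0.26 against 0.00 and -0.02 over all genes tested. With TAK901, Sesn3 rose from 22.8 and 22.1 CPM to 31.0 and 31.6 CPM at 1 µM (0.48) and 30.4 and 31.7 CPM at 2 µM (0.47). Gadd45g fell from 30.1 and 28.6 CPM to 20.4 and 22.4 CPM (-0.45) and 23.4 and 16.5 CPM (-0.53). These Sesn3 calls were lost without any 1 library of DMSO 3 and 4 or of the dose tested, as were those of Gadd45g, except that its 2 µM call was kept without replicate 1 at 2 µM. The fall of Sesn3 at 2.5 µM ENMD-2076 was not called without DMSO 1 (-0.30).

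**Figure D4:**
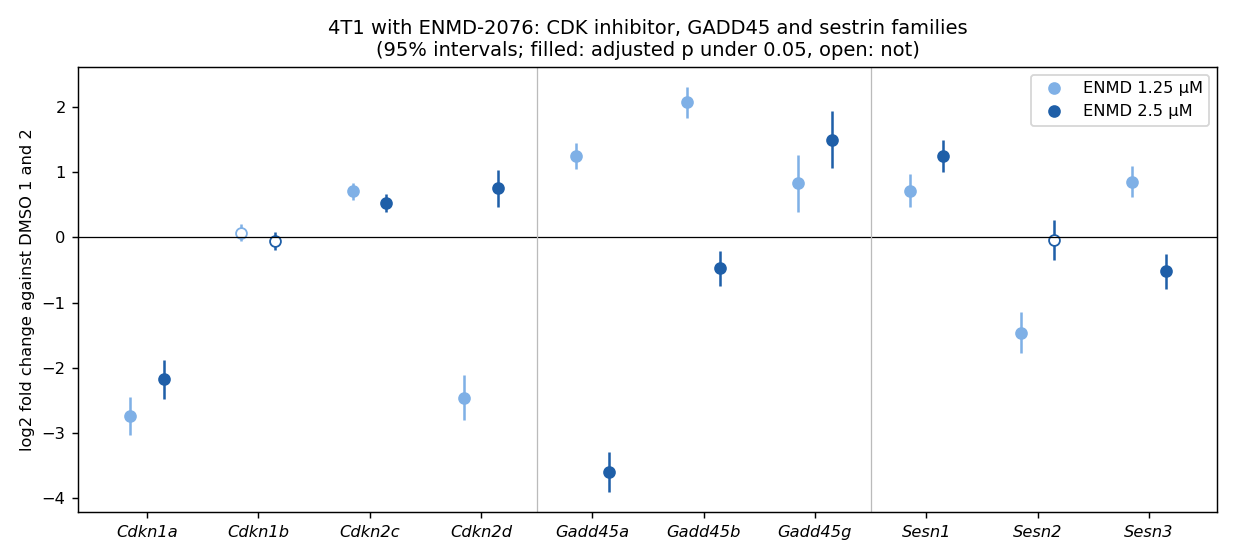
Log2 fold change with 95% interval of CDK inhibitor, GADD45 and sestrin genes in the 4T1 libraries of set 1 at 1.25 µM (light) and 2.5 µM (dark) ENMD-2076 against DMSO 1 and 2; Cdkn2a, Cdkn2b and Cdkn1c are left out for lack of reads. Cdkn1a is low at both doses, whereas Gadd45a, Gadd45b, Cdkn2d and Sesn3 lie on opposite sides of 0 at the 2 doses.

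Trp53 itself, the mouse p53 gene, read 54.5 and 54.2 CPM in DMSO 1 and 2, 39.8 and 43.1 CPM at 1.25 µM ENMD-2076 and 44.0 and 52.9 CPM at 2.5 µM. It fell by 0.38 at 1.25 µM (adjusted p = 8.2e-04 in edgeR's test) and was not called against DMSO at 2.5 µM or with TAK901. Its difference between the ENMD-2076 doses was 0.21 and turned to -0.17 under total-count scaling; it was not called without DMSO 1, replicate 1 at 1.25 µM (0.14) or replicate 2 at 2.5 µM (0.12). Among 12 tested p53 family members and regulators, 4 rose and 5 fell at 1.25 µM (median -0.15), whereas 2 rose and 8 fell at 2.5 µM (median -0.44 over the 11 with reads). DESeq2 called 3 higher and 4 lower, and 2 higher and 6 lower. Over all genes tested 22.6% were higher and 23.2% lower at 1.25 µM, and 33.2% and 37.1% at 2.5 µM, so 9 and 10 of 12 called stand beside 45.9% and 70.3% called overall. The same shares of all genes stand beside the other counts of listed genes with ENMD-2076. The largest fall at 1.25 µM was Chek2, a DNA damage checkpoint kinase, from 23.1 and 20.8 CPM to 5.36 and 6.41 CPM (-1.87). The largest rise at 2.5 µM was Ppm1d, the phosphatase WIP1 that switches p53 signalling off, from 23.0 and 14.9 CPM to 97.1 and 88.6 CPM (2.29), and the largest fall was Trp53bp1, a DNA break repair factor (-1.14). Trp63, a p53 relative, had 0 reads in DMSO 1 and 2 and 12 and 29 reads at 1.25 µM, at least 5.19-fold higher than the floor of 3 reads per library. With TAK901, Mdm2 alone was higher at 1 µM, and Usp7, a deubiquitinase that acts on MDM2 and p53, alone was lower at 2 µM (-0.20), a call lost in 9 alternatives, DESeq2 among them.

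Known p53 target genes in 4T1 did not share a direction with ENMD-2076. Of 14 arrest and feedback targets, which include Cdkn1a, Gadd45a, Mdm2 and Sesn1 themselves, 7 rose and 4 fell at 1.25 µM (median 0.24), whereas 4 rose and 7 fell at 2.5 µM (median -0.25). Btg2, an antiproliferative gene, had the largest rise at 1.25 µM, from 2.65 and 3.54 CPM to 5.78 and 8.44 CPM (1.25), and read 0.505 and 0.354 CPM at 2.5 µM (-2.78). Of 13 death targets 4 rose and 5 fell at 1.25 µM, whereas 5 rose and 6 fell at 2.5 µM, with medians over the 12 that had reads of -0.10 and -0.19. Fas, the death receptor, read 3.19 and 2.59 CPM in DMSO 1 and 2 and 59.0 and 56.9 CPM at 1.25 µM (4.32, adjusted p = 1.9e-18 in edgeR's test), and then 2.53 and 4.25 CPM at 2.5 µM. Pidd1, a death-domain adaptor, had the largest fall at 1.25 µM (-1.98) and Casp1, the inflammatory caspase, at 2.5 µM (-2.81), after a rise at 1.25 µM (1.47). The largest rise at 2.5 µM, that of Eda2r, a TNF receptor family member, rests on 2 and 12 reads against 0 and 1 in DMSO 1 and 2, and was not called without replicate 2 at 2.5 µM. Of 11 repair and metabolism targets 3 rose and 2 fell at 1.25 µM (median 0.02), whereas 3 rose and 6 fell at 2.5 µM (median -1.05). Ephx1, a detoxifying epoxide hydrolase, went from 6.16 and 4.66 CPM to 20.1 and 15.6 CPM (1.67) and then 2.02 and 2.48 CPM (-1.29), and Gls2, a glutaminase, went the other way (-2.67 and 0.90). Rps27l, with the largest rise at 2.5 µM (1.52), is a ribosomal protein gene whose near-identical copies make its count uncertain.

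With TAK901 in set 2 most of the p53 targets that were called were higher, and over all genes 3.97% were called higher and 5.17% lower at 1 µM and 5.63% and 9.28% at 2 µM. In edgeR's test the arrest list had 4 higher and 0 lower at 1 µM (median 0.17) and 5 higher and 1 lower at 2 µM (median 0.19). The death list had 2 higher and 0 lower (median 0.09) and 4 higher and 1 lower (median 0.13). The repair list had 2 higher and 0 lower (median 0.13) and 2 higher and 1 lower (median 0.13). For the 3 counts of 0 at 1 µM, 1, 0 and 0 genes were lower at an unadjusted p under 0.05, and DESeq2 called 0. Over all genes tested the medians were 0.00 and -0.02. Btg2 rose from 23.1 and 22.8 CPM in DMSO 3 and 4 to 34.4 and 35.2 CPM (0.60) and 42.1 and 40.8 CPM (0.86). Fas, the death receptor, rose from 4.72 and 4.21 CPM to 9.55 and 8.97 CPM (1.05) and 12.4 and 7.40 CPM (1.21), and Ephx1 rose from 263 and 262 CPM to 383 and 395 CPM (0.57) and 465 and 410 CPM (0.74). The called falls at 2 µM were those of Sfn, the 14-3-3 sigma gene (-0.88), Aen, a p53-induced exonuclease (-0.34), and Rps27l (-0.27). None of these 3 calls held without replicate 2 at 2 µM. That of Btg2 at 1 µM was lost without any 1 library of DMSO 3 and 4 or of that dose, and that of Fas at 2 µM was lost without replicate 1 at 2 µM (0.73). Proliferation markers summed to 2729 to 2742 CPM in DMSO 3 and 4, 2484 to 2534 CPM at 1 µM and 2206 to 2263 CPM at 2 µM, with 2 and 5 of 7 lower. Their part in these rises was not tested.

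**Figure D5:**
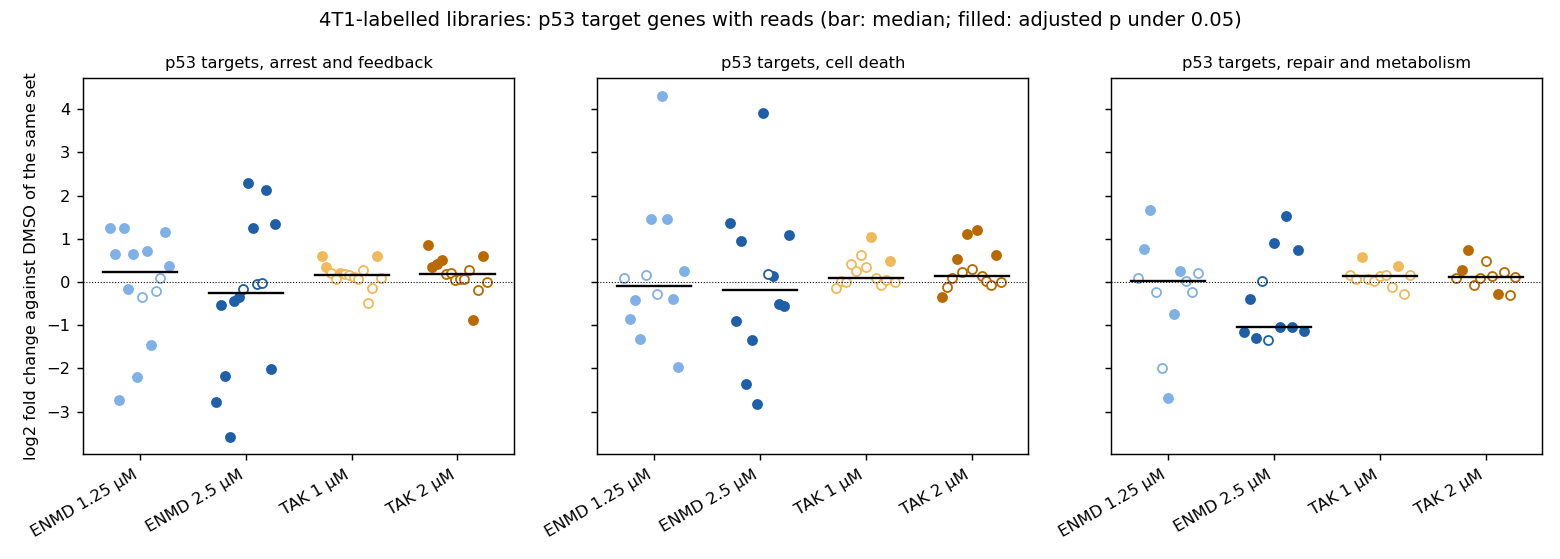
Log2 fold change of p53 target genes with reads in both groups, in the libraries labelled 4T1 against DMSO of the same set, for 3 lists; each point is a gene (filled where called) and the bar is the median. The ENMD-2076 columns spread from about -3.59 to 4.32 with medians between -1.05 and 0.24, and the TAK901 columns stay within -0.88 to 1.21.

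Genes of p27 turnover changed with ENMD-2076 while Cdkn1b was not called. Skp2, the F-box protein that marks p27 for degradation, read 45.2 and 46.4 CPM in DMSO 1 and 2, 24.0 and 23.9 CPM at 1.25 µM ENMD-2076 (-0.94) and 399 and 406 CPM at 2.5 µM (3.13, adjusted p = 1.3e-25 in edgeR's test). Its cofactor Cks1b fell from 91.0 and 101 CPM to 29.9 and 29.6 CPM (-1.69) and rose to 273 and 259 CPM (1.47). With TAK901 Skp2 fell from 61.8 and 64.2 CPM in DMSO 3 and 4 to 49.3 and 54.5 CPM (-0.27) and 41.9 and 47.3 CPM (-0.51), the smaller change being lost without DMSO 3, DMSO 4 or replicate 1 at 1 µM. Fbxo4 had the largest rise of the list at 1.25 µM (0.68). Foxo4, a FOXO transcription factor, had the largest fall at 2.5 µM ENMD-2076 (-1.55) and the largest rise at 2 µM TAK901 (0.47), which was not called without DMSO 4 or without replicate 1 at 2 µM. Of the 7 genes of this list, 4 were higher and 2 lower at 1.25 µM ENMD-2076 (median 0.28), 4 higher and 3 lower at 2.5 µM (median 0.34), 0 higher and 2 lower at 1 µM TAK901 in edgeR's test (median 0.15, 2 higher at an unadjusted p under 0.05, DESeq2 0 higher) and 2 higher and 3 lower at 2 µM (median 0.12). Of 12 FOXO-responsive genes, which include Cdkn1b, Gadd45a, Sesn1 and Sesn3, 6 rose and 3 fell at 1.25 µM ENMD-2076, whereas 2 rose and 7 fell at 2.5 µM, with Irs2 the largest fall at 1.25 µM (-1.01). With TAK901 2 were higher at 1 µM and 5 at 2 µM, and 0 were lower at either dose, by edgeR, by DESeq2 or at an unadjusted p under 0.05. Of all genes tested, 3.97% were called higher and 5.17% lower at 1 µM TAK901, and 5.63% and 9.28% at 2 µM. These shares stand beside every count of listed genes with TAK901, and few falls would be called in a list this short.

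Over the 12 mouse libraries, each set on its own DMSO mean, the genes whose log2 CPM ran most like a member's were Stc2 and Chka for Cdkn1a (Pearson r of 0.996 and 0.994), Coro6 and Snap47 for Gadd45a (0.996 and 0.996), and Pdcd6ip and Zfp445 for Sesn1 (0.987 and 0.987). Rnft2 and Gm16576 ran most like Mdm2 (0.984 and 0.982). For Cdkn1b the highest r was that of Pdx1, which had 0 reads in the 6 set 1 libraries and so no measured likeness there, and Pikfyve came next (0.942). These are the highest of 15375 genes over points that share libraries and controls, so they describe likeness of pattern only. Over the 10 MDA-MB-231 libraries the gene most like CDKN1B was the unnamed ENSG00000164543 (0.990) and that most like CDKN1A was ENSG00000183655 (0.982).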

How the data were processed

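The authors deposited 1 table of raw counts of reads per gene for each of 22 libraries, made from total RNA with a NEBNext Ultra kit per the labels. Builds hg38 and mm10 and the tools TopHat, Bowtie, HTSeq, DESeq2 and FastQC 0.11.3 are listed in the submitters' processing notes. No source used here gives the strand setting, the annotation or further versions. HTSeq summary lines in the tables of set 2, 40.7% to 57.3% of all their counts, were removed. The labels' doses were followed for ENMD-2076 in 4T1, although protocol and column names differ.

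All groups of a line were fitted together with edgeR 4.0.16 (R 4.3.3: filterByExpr, TMM, quasi-likelihood test, two-sided, Benjamini-Hochberg over all genes tested), with DESeq2 1.42.0, other scalings, no filter, fewer groups and single libraries left out as alternatives, 2 of them added after the counts had been seen. Standard errors were derived from each fold change and edgeR's F statistic (log2 scale). The fit was tested on simulated data. Of the 4T1 IDs 37607 were named from GENCODE vM21, and promoters are from RefSeq. Libraries of a group were not duplicates (chi-square per degree of freedom of at least 2.39). The value within a group reached 7.32 in 4T1 and 54.25 in MDA-MB-231, so at least 1 MDA-MB-231 pair differed widely. Outside the 10 genes the text names the CDK inhibitor, GADD45 and sestrin families, Trp53, the largest called rise and fall of each list, and the 2 genes most like each member. Members and lists were chosen with earlier results of these data known.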

Additional observations from a re-analysis of the deposited data

Results flagged for a closer look

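Under the same compound and dose, some genes lay on opposite sides of DMSO in all libraries of MDA-MB-231 and of the mouse cells, and none of these differences between the lines was tested. With 1 µM TAK901 the log2 fold change of CDKN1A was -0.75 in MDA-MB-231 and that of Cdkn1a 0.21 (not called) in set 2, and that of MDM2 was -0.26 (not called) and of Mdm2 0.20. With 2 µM TAK901 it was -0.62 for CDKN1A against 0.42 for Cdkn1a, and -0.56 for GADD45A against 0.51 for Gadd45a. With 2.5 µM ENMD-2076 CDKN1B stood at 0.086 and Cdkn1b at -0.055, neither of them called, and Cdkn1b was at 0.104 with RLE size factors and with DESeq2.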

How the results depend on the processing

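Of 214 comparisons of a count of the 5 genes called with an alternative, 187 stayed within 1.5 times the count and 27 did not. At 5 µM ENMD-2076 in MDA-MB-231 the count of 0 became 1 (CDKN1A) with DESeq2, with no filter, with only the 2 groups compared and without both TAK901 2 µM libraries, and was 0 to 1 when single libraries were left out. At 1 µM TAK901 in MDA-MB-231 the count of 3 was 1 to 3 without single libraries. In set 2 the count of 1 at 1 µM TAK901 became 0 with no filter, 3 with only the 2 groups compared, 3 with the 6 libraries of set 2 and 2 without both TAK901 2 µM libraries (an alternative chosen after seeing the data), and was 0 to 1 without single libraries. The count of 3 at 2 µM was 1 to 3, with 1 reached without replicate 2 at 2 µM. With only the 2 groups compared, 1 gene instead of 0 differed between the ENMD-2076 doses in MDA-MB-231 and 1 instead of 0 between the TAK901 doses in set 2. The cause of these moves was not tested.

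Changes of sign fell on differences that were not called, except that of Trp53 between the ENMD-2076 doses (-0.17 under total-count scaling). Cdkn1b at 2.5 µM ENMD-2076 (-0.05) turned to 0.10 with RLE size factors, 0.10 with DESeq2, 0.014 with only the 2 groups compared and 0.029 with the 6 libraries of set 1 (chosen after seeing the data), and ranged from -0.087 to 0.00842 without single libraries. SESN1 at 2 µM TAK901 turned to 0.010 under total-count scaling. Without single libraries SESN1 ranged from -0.16 to 0.40 and from -0.21 to 0.00051 at 2.5 and 5 µM ENMD-2076 and from -0.31 to 0.12 and from -0.39 to 0.26 at 1 and 2 µM TAK901, MDM2 from -0.18 to 0.089 at 2 µM TAK901, Gadd45a from -0.016 to 0.13 at 1 µM TAK901, and Sesn1 from -0.14 to 0.33 at 2 µM TAK901.

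Counts over all genes moved most in MDA-MB-231: over the alternatives 11 to 966 genes against 90 were called at 2.5 µM ENMD-2076, 67 to 2503 against 725 at 5 µM, 739 to 3995 against 2065 at 1 µM TAK901, 2340 to 5594 against 4623 at 2 µM, 1 to 707 against 2 between the ENMD-2076 doses and 0 to 3581 against 555 between the TAK901 doses. In set 2 they were 376 to 3719 against 1406, 1245 to 3377 against 2292, and 1 to 99 against 11 between doses. In set 1 they stayed within 1.5 times.

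Libraries that share a replicate number did not deviate together: correlations of their deviations ran from -0.0213 to 0.106, and with 2 numbers per group the numbers were taken as names. With the replicate block the count at 5 µM ENMD-2076 in MDA-MB-231 was 1 instead of 0, and the other counts of the 5 genes stayed within 1.5 times. No paired analysis was possible for TAK901 against DMSO in set 2 because the groups share no replicate number. Depth limits SESN1 (65 to 152 reads per library) and the libraries at 2 µM TAK901 in set 2 (6004077 and 3746588 reads).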
